A study of Mus musculus with 23 samples.

Results

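Genes that sit at the centre of cell-cycle control in cancer were followed across syngeneic mouse tumors and the fibroblasts sorted from them, namely Cdkn2a, Cdkn2b, Ccnd1, Trp53, Mdm2, Cdkn1a, Smad4 and Myc. The members were chosen by name, as 8 of the 24940 gene symbols in the deposited tables, and each was read from the RefSeq transcript with the largest mean. The measured libraries were 15 whole tumors from 5 models and 8 libraries of cancer-associated fibroblasts (CAFs) from 4 of these models. The question put to the data was whether a model had lost or gained the transcript of a member, and whether the CAF libraries of that model showed the same.

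All models were made by injecting 500000 cells of an established, unmodified C57BL/6 line under the skin of the flank of adult female mice, and no group was treated. B16 tumors came from B16-F10 melanoma cells, EO771 tumors from EO771.LMB breast cancer cells, LL2 tumors from LL/2 lung carcinoma cells, MC38 tumors from colon carcinoma cells and Pan02 tumors from pancreatic cancer cells, with 3 tumors in each model. The Pan02 tumors have titles that start with Pan01 and were grouped by their cell line label, which reads Pan02. A whole tumor holds cancer cells together with host leukocytes, vessels and fibroblasts, so a line is 1 clone or culture while the host cells differ from mouse to mouse. CAFs were sorted as cells positive for fibroblast activation protein after depletion of CD45-positive leukocytes, with 2 libraries from each of EO771, LL2, MC38 and Pan02. B16 CAFs and the CT26 model were not analysed here.

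The 8 members form connected circuits. Cdkn2a encodes both p16INK4a, which inhibits the cyclin D-dependent kinases CDK4 and CDK6, and p19ARF, which restrains MDM2, the ubiquitin ligase that keeps p53 low. Cdkn2b, the neighbouring gene, encodes p15INK4b, and Ccnd1 encodes cyclin D1, the partner that these inhibitors oppose. Trp53 encodes p53, Cdkn1a (p21) and Mdm2 are among its best known transcriptional targets, Smad4 encodes the common mediator of TGF-beta and BMP signals, and Myc encodes a transcription factor that drives ribosome production and growth.

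Tumor libraries held between 10035173 and 21946486 counts (median 16541399), and the CAF values implied between 9267778 and 22841682 mapped reads. Tumor levels are given as CPM, counts scaled by library depth after TMM scaling, and CAF levels as RPKM, which scales reads by exon length and by library depth, as deposited. Differences between tumor models were tested with edgeR's quasi-likelihood test and differences between CAF models with limma on log2(RPKM + 1), each over all genes and with Benjamini-Hochberg adjustment. A gene was called when its adjusted p was under 0.05 and it differed by at least 1 on the log2 scale. Nothing in the labels says that libraries of a model came from separate mice, so the p-values measure the spread between these libraries. Of the labelled cell types, the 10 melanocyte markers summed to between 11392 and 13851 RPKM in B16 tumors and to at most 22.8 RPKM in the other tumors, and 12 leukocyte markers summed to between 6.30 and 79.2 RPKM in CAF libraries against 209 to 2349 RPKM in tumors. All 10 fibroblast markers were at or above 1 RPKM in every CAF library. They summed to 9139 to 9890 RPKM in EO771 CAFs, 7051 to 8297 in LL2, 1561 to 6780 in MC38 and 2475 to 3998 in Pan02 CAFs. The same sum was 8247 to 9167 RPKM in Pan02 tumors, above that of Pan02 CAFs, and at most 2691 RPKM in the tumors of the other models. The 9 epithelial markers summed to 913 to 1200 RPKM in Pan02 CAFs, 495 to 502 in EO771 CAFs, 209 to 213 in LL2 CAFs and 2.42 to 5.06 in MC38 CAFs. In MC38 tumors, labelled as colon carcinoma, they summed to 4.66 to 34.4 RPKM. Of the 9 epithelial markers, 7 were at or above 1 RPKM in every Pan02 CAF library, 6 in LL2, 1 in EO771 and 0 in MC38. Against the other CAF models, Krt8 was higher in EO771 CAFs, while Cdh1, Ehf, Krt18, Krt19 and Krt7 were lower there.

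Of the genes restricted to 1 model's tumors (mean of at least 10 CPM and at least 10-fold over every other tumor, a rule chosen after the values were seen), most were also present in that model's CAF libraries. In EO771, 16 of 16 such genes stood at or above 1 RPKM in both CAF libraries, as did 4 of 5 in LL2, 16 of 19 in MC38 and 53 of 55 in Pan02. Their median was 29.3 RPKM in EO771 CAFs and 43.1 RPKM in EO771 tumors, 7.07 and 9.28 RPKM for LL2, 5.86 and 8.62 RPKM for MC38, and 20.6 and 18.5 RPKM for Pan02. In the CAF libraries of the other 3 models these medians were between 0.0355 and 0.947 RPKM. The 2 tables were normalized separately, the part of these transcripts in the CAF values of the members was not tested, and in bulk samples fewer cells of a type and less RNA per cell cannot be told apart.

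All 8 members differed among the 5 tumor models (adjusted p between 9.9e-09 and 2.5e-05, edgeR), where 91.1% of all tested genes did. All 8 also differed among the 4 CAF models (adjusted p between 2.9e-05 and 0.026, limma), against 80.4% of all tested genes. With each tumor model compared to the average of its 4 counterparts, 8 of 40 comparisons of members were called higher and 9 lower, where the background over all genes was 12.3% and 11.5%. Among CAFs, 7 of 32 such comparisons were called higher and 8 lower, against 8.14% and 7.62% over all genes. Between pairs of models, 34 of 80 tumor comparisons and 27 of 48 CAF comparisons of members were called, against 29.6% and 21.9% over all genes.

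By model, B16 tumors had 0 members higher and 4 lower (background 13.1% and 19.6%), EO771 2 and 0 (9.71% and 13.7%), LL2 2 and 2 (8.51% and 8.29%), MC38 2 and 0 (11.2% and 8.24%), and Pan02 2 and 3 (18.8% and 7.93%). In CAFs, EO771 had 2 members higher and 0 lower (8.05% and 7.06%), LL2 2 and 2 (3.89% and 5.13%), MC38 2 and 4 (10.9% and 9.87%), and Pan02 1 and 2 (9.73% and 8.41%). The 4 members lower in B16 tumors were Cdkn2a, Cdkn2b, Ccnd1 and Myc, and the 4 lower in MC38 CAFs were Ccnd1, Mdm2, Cdkn1a and Myc.

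**Figure D1:**
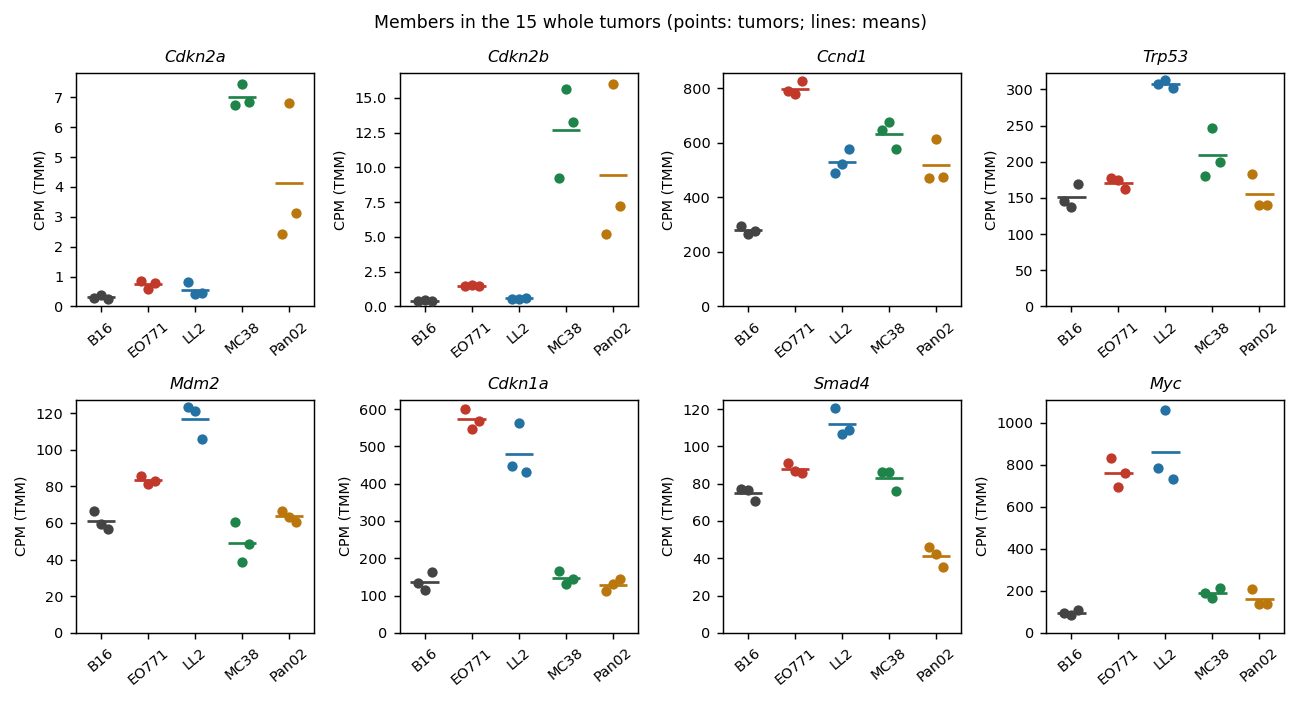
Level of each member in CPM after TMM scaling (vertical axes, each starting at 0) in the 3 tumors of each of the 5 models; points are tumors and lines are means. Cdkn2a, read from the Arf transcript, and Cdkn2b are high in MC38 and Pan02 tumors. Cdkn1a and Myc are high in EO771 and LL2 tumors, and Smad4 is lowest in Pan02 tumors.

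Cdkn2a lies on mouse chromosome 4 and has 2 annotated transcripts that differ in the first exon and share exons 2 and 3 (mm10, minus strand). The Arf transcript NM_009877 starts with exon 1β at chr4:89294334-89294653, which holds 190 coding bases. The Ink4a transcript NM_001040654 starts with exon 1α at chr4:89281986-89282192, which holds 126 coding bases and starts 12461 bases downstream of the start of exon 1β. Both then run into exon 2 at chr4:89276645-89276985, read in a different frame for each protein. The coding parts of both first exons are shown in lower case, followed in capitals by the first 30 bases of the shared exon 2, because the 2 transcripts behaved differently between models.
Arf exon 1β: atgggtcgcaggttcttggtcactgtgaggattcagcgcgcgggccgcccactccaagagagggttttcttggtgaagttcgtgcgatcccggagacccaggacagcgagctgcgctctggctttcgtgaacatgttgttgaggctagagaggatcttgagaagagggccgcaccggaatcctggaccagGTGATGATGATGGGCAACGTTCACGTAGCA
Ink4a exon 1α: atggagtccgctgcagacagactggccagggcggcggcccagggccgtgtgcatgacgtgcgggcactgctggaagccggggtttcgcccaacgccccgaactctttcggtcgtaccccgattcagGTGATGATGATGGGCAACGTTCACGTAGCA

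Cdkn2a, read from the Arf transcript, was low in 3 of the 5 tumor models. B16 tumors had 0.295, 0.373 and 0.249 CPM, LL2 tumors 0.815, 0.417 and 0.438 CPM, and EO771 tumors 0.847, 0.594 and 0.784 CPM. MC38 tumors had 6.74, 7.45 and 6.85 CPM, and Pan02 tumors 2.44, 6.81 and 3.12 CPM. Every MC38 and Pan02 tumor was thus above every tumor of the other 3 models, and B16 tumors lay below all others. Cdkn2a rose in MC38 (log2 fold change against the other 4 models 3.03 ± 0.26 SE, adjusted p = 7.3e-07, edgeR) and in Pan02 (2.07 ± 0.27, adjusted p = 1.9e-05). It fell in B16 (-2.58 ± 0.40, adjusted p = 7.1e-05) and in LL2 (-1.53 ± 0.36, adjusted p = 0.0036). The value of EO771, -0.99 ± 0.35 with an adjusted p of 0.028, was just under the fold threshold, and passed it (up to -1.03) without any 1 of B16 replicate 3, LL2 replicates 2 and 3 or Pan02 replicates 1 and 3. The B16 values rest on 2.5 to 5.5 counts a tumor, where a count of 0 would allow up to 3 counts, or 0.144 to 0.295 CPM depending on the library. Cdkn2a passed the filter on low counts through the models where it was high. In the order of the means, no difference beyond the spread was found between MC38 and Pan02 (adjusted p = 0.071, edgeR), EO771 and LL2 (0.43) or LL2 and B16 (0.15).

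The 2 transcripts parted in MC38. The Arf transcript drew 139.5, 149.5 and 99.5 counts in the 3 MC38 tumors, while the Ink4a transcript, which includes the shared exons 2 and 3, drew 7.5, 3 and 12.5 counts. The Ink4a count was thus between 2.01% and 12.6% of the Arf count in MC38 tumors, so most Arf counts lay on exon 1β. In Pan02 tumors the same share was between 60.6% and 82.7%, in EO771 between 85.7% and 100%, in B16 between 77.8% and 100% and in LL2 between 42.9% and 82.6%, the last 3 on few counts. The MC38 CAF libraries showed the MC38 pattern, with 117 and 102 counts recovered on the Arf transcript and 17.5 and 5 on the Ink4a transcript, a share of 14.96% and 4.90%. In the other 6 CAF libraries the share was between 53.6% and 88.5%. These shares are descriptions without a test. When Cdkn2a was read from the Ink4a transcript instead, a choice made after seeing the data, MC38 tumors stood at -0.59 against the other models (adjusted p = 0.38, edgeR). MC38 CAFs stood at 0.03 (adjusted p = 0.89, limma). The MC38 excess was thus found on exon 1β and not over the shared exons 2 and 3. These shared exons hold 575 of the 895 exon bases of the Arf transcript, so an excess of the full-length Arf transcript was not shown.

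**Figure D2:**
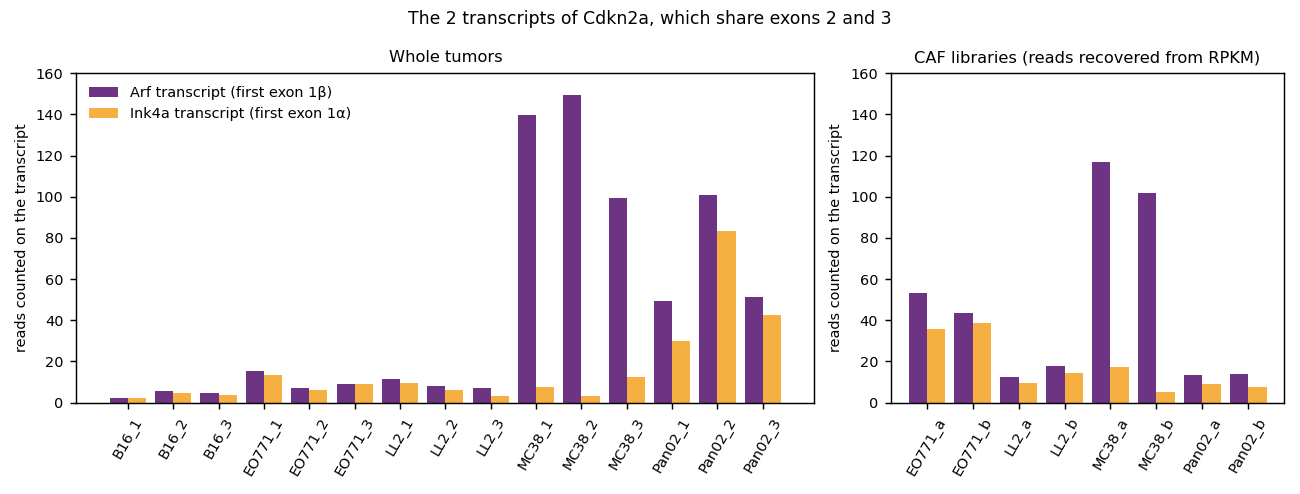
Reads counted on the Arf and the Ink4a transcript of Cdkn2a (vertical axis, from 0) in each of the 15 tumors and 8 CAF libraries, without scaling for depth. The MC38 libraries have tall Arf bars of 99.5 to 149.5 counts beside Ink4a bars of at most 17.5, in tumors and CAFs alike, while in Pan02 tumors both bars are high.

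Cdkn2b followed Cdkn2a across the tumors. Its level was 0.393, 0.497 and 0.399 CPM in B16, 0.544, 0.574 and 0.626 CPM in LL2, and 1.48, 1.53 and 1.48 CPM in EO771. MC38 tumors had 9.24, 15.6 and 13.3 CPM and Pan02 tumors 5.18, 15.99 and 7.20 CPM, so that again both models lay above all other tumors and overlapped each other. Cdkn2b rose in MC38 (3.20 ± 0.24, adjusted p = 3.4e-07, edgeR) and Pan02 (2.66 ± 0.25, adjusted p = 1.1e-06) and fell in B16 (-2.87 ± 0.38, adjusted p = 1.9e-05) and LL2 (-2.34 ± 0.36, adjusted p = 0.00016). EO771, at -0.65 ± 0.32 (adjusted p = 0.10), did not pass against the mean of the others, yet it was higher than LL2 (1.35, adjusted p = 0.017) and B16 (1.78, adjusted p = 0.0032). Pan02 replicate 2 had the highest level of both genes in its model, and without it the Pan02 values became 1.5003 for Cdkn2a and 2.05 for Cdkn2b, both still called. Across the 15 tumors, Cdkn2a was the gene most like Cdkn2b of all tested genes (root mean square difference of centred log2(CPM + 1) 0.393), and Npr1 was the most like Cdkn2a (0.326).

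In CAF libraries the 2 genes again peaked in MC38. Cdkn2a stood at 9.58 and 11.9 RPKM in MC38 CAFs, 2.79 and 2.35 in EO771, 0.903 and 0.847 in Pan02, and 0.598 and 0.853 in LL2. Cdkn2b stood at 16.05 and 15.6 RPKM in MC38 CAFs, 4.86 and 3.79 in EO771, 3.11 and 1.79 in Pan02, and 1.32 and 0.867 in LL2. MC38 CAFs lay above all other CAF libraries for both genes, by 2.37 ± 0.13 for Cdkn2a (adjusted p = 2.1e-05, limma) and 2.33 ± 0.18 for Cdkn2b (adjusted p = 6.1e-05). LL2 CAFs were lower, by -1.31 ± 0.13 (adjusted p = 0.00045) and -1.69 ± 0.18 (adjusted p = 0.00057). Pan02 CAFs did not share the Pan02 tumor excess. Cdkn2a was below the mean of the other models there (-1.15 ± 0.13, adjusted p = 0.00036), and Cdkn2b was at -0.75 ± 0.18 (adjusted p = 0.010), under the fold threshold. Cdkn2a was under 1 RPKM in every LL2 and Pan02 CAF library and passed the filter on low values through MC38 and EO771. Its LL2 and Pan02 calls were made against means that include the high MC38 values. LL2 against Pan02 CAFs stood at -0.12 (adjusted p = 0.60, limma). Read from the Ink4a transcript, the Cdkn2a calls of MC38 CAFs (0.03, adjusted p = 0.89, limma), LL2 CAFs (-0.42, adjusted p = 0.11) and Pan02 CAFs (-0.48, adjusted p = 0.058) were lost.

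The genes around Cdkn2a were followed to place these differences. Mtap, which encodes a methionine salvage enzyme and ends 93.4 kb from Cdkn2a, was present in all models, with means between 71.7 CPM in Pan02 and 284 CPM in MC38 tumors, where it rose (1.40 ± 0.15, adjusted p = 6.1e-06, edgeR). In B16 tumors, where Cdkn2a and Cdkn2b were lowest, Mtap had 136 ± 24.0 CPM (SD, n = 3). Beyond Mtap lie the noncoding genes Gm12602, Wincr1 and LOC106557447. LOC106557447 had 8.31 ± 2.26 CPM in LL2, 4.99 ± 0.393 in MC38 and 7.28 ± 1.79 in Pan02 tumors, but 0.029 ± 0.0503 CPM in EO771 and 0.736 ± 0.118 CPM in B16. Gm12602 had 0.0467 ± 0.0439 CPM in EO771 tumors against 4.17 ± 0.741 in LL2. Wincr1 was listed at 0 in all B16 and EO771 tumors and had 2.70 ± 1.18 CPM in LL2, 7.23 ± 1.01 in MC38 and 5.32 ± 2.42 in Pan02. EO771 CAFs likewise had at most 0.048 RPKM of any of these 3 transcripts, while the lowest of the other CAF libraries had 0.525 RPKM.

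Ccnd1 was abundant everywhere and lowest in B16. B16 tumors had 296, 267 and 277 CPM, LL2 tumors 489, 521 and 576, Pan02 tumors 470, 615 and 475, MC38 tumors 647, 678 and 576, and EO771 tumors 791, 778 and 828 CPM. B16 tumors lay below all 12 others (-1.12 ± 0.10, adjusted p = 4.3e-07, edgeR), and EO771 tumors lay above all others by less than the fold threshold (0.77 ± 0.09, adjusted p = 8.4e-06). Between LL2, MC38 and Pan02 no pair passed (adjusted p between 0.051 and 0.88). Among CAFs, Pan02 was high with 106 and 147 RPKM (1.16 ± 0.15, adjusted p = 0.00060, limma) and MC38 low with 32.9 and 35.8 RPKM (-1.29 ± 0.15, adjusted p = 0.00030), with EO771 at 91.9 and 95.9 and LL2 at 48.3 and 57.6 RPKM between them. Without the second Pan02 library the Pan02 value was 0.92 (adjusted p = 0.0059) and fell under the threshold. Of the exon bases of Ccnd1, 29.4% lie in exons of Lto1 on the opposite strand, and since the counting used both strands, reads of the 2 genes cannot be told apart there.

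The partners of these genes in the INK4-RB circuit, 17 kinases, cyclins, inhibitors and RB and E2F genes, moved in different directions. Against the other models, 4 of 17 were higher in EO771 tumors and 2 lower (background 9.71% and 13.7%), 5 of 17 were lower and 1 higher in Pan02 (7.93% and 18.8%), and 2 rose and 2 fell in B16 (13.1% and 19.6%). In MC38 tumors 3 were higher and 0 lower (11.2% and 8.24%), and in LL2 tumors 0 were higher and 1 lower (8.51% and 8.29%). Cdk6, a kinase bound by cyclin D1 and p16INK4a, fell in B16 (24.1 CPM against 212 CPM in EO771, -2.27 ± 0.14, adjusted p = 8.2e-09, edgeR). Cdkn2c, encoding the related inhibitor p18INK4c, was lowest in EO771 (21.05 CPM, -1.75 ± 0.14, adjusted p = 3.4e-07) and highest in B16 (118 CPM). In EO771 CAFs Cdkn2c was also lower (-1.18 ± 0.14, adjusted p = 0.00047, limma), and in Pan02 CAFs it was higher (1.78 ± 0.14, adjusted p = 4.9e-05). Cdk2 stood at 681 CPM in B16 tumors against 35.1 to 78.4 CPM elsewhere, but its exons overlap those of the pigment gene Pmel by 34 bases, and reads there cannot be assigned. Ccne1, encoding cyclin E1, was highest in EO771 tumors (101 CPM) and lowest in Pan02 (9.29 CPM, -2.26 ± 0.17, adjusted p = 1.8e-07).

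Trp53 itself varied little and was not lost in any model. Its level was 146, 137 and 170 CPM in B16, 178, 174 and 162 in EO771, 181, 246 and 199 in MC38, and 183, 141 and 141 in Pan02. LL2 tumors had 307, 314 and 302 CPM, above all other tumors (0.85 ± 0.10, adjusted p = 1.6e-05, edgeR), which was under the fold threshold, and only the pair LL2 against B16 passed it (1.02 higher in LL2, adjusted p = 2.3e-05). In CAFs, Trp53 ran from 64.7 RPKM in MC38 to 117 RPKM in LL2, where both libraries again lay above the rest (0.49 ± 0.13, adjusted p = 0.029, limma).

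Mdm2 ran parallel to Trp53 at its upper end. LL2 tumors had 123, 121 and 106 CPM, EO771 85.8, 81.2 and 83.0, Pan02 66.3, 63.5 and 60.7, B16 66.3, 59.5 and 56.7, and MC38 60.7, 38.9 and 48.3 CPM. LL2 lay above all other tumors (0.89 ± 0.10, adjusted p = 1.1e-05, edgeR) and MC38 had the lowest mean (-0.67 ± 0.11, adjusted p = 0.00022), both under the fold threshold, while the difference between these 2 models passed it (1.24, adjusted p = 9.3e-06). MC38 CAFs had 8.88 and 9.33 RPKM against 20.1 to 28.8 RPKM in the other 6 libraries, and Mdm2 fell there (-1.35 ± 0.09, adjusted p = 4.2e-05, limma). MC38 had the highest mean of the Arf transcript, mostly from reads on exon 1β, and the lowest mean of Mdm2 in both tables. A link between the 2 was not tested. In tumors, the Mdm2 levels of MC38 and B16 overlapped (adjusted p = 0.066, edgeR).

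Cdkn1a, the p53 target that encodes the kinase inhibitor p21, split the tumors into 2 groups. EO771 tumors had 601, 547 and 568 CPM and LL2 tumors 448, 564 and 430 CPM. B16 had 133, 115 and 162, MC38 167, 130 and 145, and Pan02 113, 131 and 143 CPM. No tumor of the latter 3 models came near the former 2, and within each set no pair of models passed (adjusted p between 0.18 and 0.65). Cdkn1a rose in EO771 (1.61 ± 0.11, adjusted p = 5.7e-08, edgeR) and LL2 (1.29 ± 0.11, adjusted p = 7.9e-07) and fell in Pan02 (-1.08 ± 0.13, adjusted p = 7.9e-06). In CAFs the order was the same at the top, with 158 and 170 RPKM in EO771 (2.06 ± 0.24, adjusted p = 0.00048, limma) and 78.2 and 83.9 in LL2 (0.72 ± 0.24, adjusted p = 0.054). Pan02 CAFs had 47.1 and 22.9 RPKM and MC38 CAFs 23.2 and 19.3 RPKM, of which MC38 was called lower (-1.80 ± 0.24, adjusted p = 0.00058).

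The upstream start of Cdkn1a carries the core letters of a p53 binding motif, which is shown because p53 targets are compared next. In the RefSeq promoter windows (GRCm38.p6, 250 bases before to 50 bases after each start, 32851 windows), the letters CATG followed 6 bases later by CATG, searched on both strands, occur in 234 windows or 0.712%. Of the members, 5 of 8 have windows there, 7 in all. The motif was found in the window of the upstream Cdkn1a start at chr17:29090729-29091028 (plus strand), 48 bases before the start, and in no other member window. It is given in capitals.
Cdkn1a upstream start: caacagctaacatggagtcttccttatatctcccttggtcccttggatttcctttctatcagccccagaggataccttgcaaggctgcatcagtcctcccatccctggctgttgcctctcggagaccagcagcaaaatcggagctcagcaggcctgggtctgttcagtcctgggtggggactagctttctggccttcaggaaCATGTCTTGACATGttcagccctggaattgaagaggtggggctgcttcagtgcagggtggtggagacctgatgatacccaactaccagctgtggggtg
The match describes letters and not occupancy.

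The other p53 targets did not all move with Cdkn1a. Of 22 listed targets besides the members, 12 were lower and 0 higher in B16 tumors, where 19.6% and 13.1% of all genes were so called, with a list median of -1.09 against -0.03 over all genes. In Pan02 tumors, where Cdkn1a fell, 9 were higher and 1 lower (background 18.8% and 7.93%), with a median of 0.76 against 0.05. Markers of other cells moved with these counts: 10 of 10 fibroblast and 8 of 10 tested leukocyte markers were lower in B16 tumors (medians -3.31 and -1.37), and 10 of 10 fibroblast, 4 of 10 leukocyte and 8 of 8 tested epithelial markers were higher in Pan02 tumors (medians 2.62, 0.77 and 6.38). Their part in the p53, SMAD, MYC and proliferation lists was not tested. In LL2 tumors, where Cdkn1a rose, 5 of the 22 targets were higher and 1 lower (8.51% and 8.29%). In EO771 tumors, where Cdkn1a rose most, 1 was higher and 3 lower (9.71% and 13.7%). Fas, the death receptor, had 24.9 ± 6.21 CPM in Pan02 tumors and 1.15 ± 0.221 CPM in B16 (SD, n = 3), a rise of 2.98 ± 0.18 in Pan02 (adjusted p = 2.2e-08, edgeR) and a fall of -2.53 ± 0.26 in B16 (adjusted p = 2.1e-06). Pan02 CAFs had 6 of 22 targets higher and 0 lower (9.73% and 8.41%), among them Fas (2.06 ± 0.23, adjusted p = 0.00033, limma) and the antiproliferative gene Btg2 (2.17 ± 0.29, adjusted p = 0.00081). MC38 tumors had 3 higher and 4 lower (11.2% and 8.24%), and MC38 CAFs 0 higher and 3 lower (10.9% and 9.87%). Of 9 tested genes that act on p53, such as the kinase genes Atm and Chek1, at most 2 were called in any model. Atm and Chek1 were higher in B16 tumors (background 13.1%) and Chek1 in MC38 tumors (11.2%). Trp63 was lower in EO771 tumors (13.7%), and in Pan02 tumors Trp63 was higher (18.8%) and Chek1 lower (7.93%). Among CAFs, Mdm4 and Trp63 were lower in EO771 (7.06%) and Trp63 in LL2 (5.13%), while Trp63 was higher in Pan02 (9.73%).

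Smad4 was lowest in Pan02 and highest in LL2. Pan02 tumors had 46.0, 42.5 and 35.1 CPM, against 77.3, 76.8 and 70.6 in B16, 86.0, 86.4 and 76.1 in MC38, 91.2, 86.8 and 85.7 in EO771, and 121, 107 and 109 CPM in LL2. The Pan02 tumors lay below all 12 others, and Smad4 fell there (-1.10 ± 0.09, adjusted p = 3.0e-07, edgeR). Without Pan02 replicate 3 the value was -0.99 (adjusted p = 1.5e-06), just under the fold threshold. LL2 tumors lay above all others (0.70 ± 0.08, adjusted p = 1.1e-05), also under that threshold. Pan02 CAFs shared the low level, with 8.04 and 6.50 RPKM against 11.0 and 11.2 in MC38, 21.4 and 23.2 in EO771, and 25.2 and 26.5 in LL2. MC38 CAFs were also lower than LL2 CAFs (1.15 higher in LL2, adjusted p = 0.00050, limma). Smad4 fell in Pan02 CAFs (-1.25 ± 0.11, adjusted p = 9.2e-05, limma) and rose in LL2 CAFs (1.02 ± 0.11, adjusted p = 0.00058). The LL2 call went under the fold threshold without the second LL2 library (0.98) or the second Pan02 library (0.97). The transcript was thus reduced and not absent in Pan02.

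Near Smad4, Me2, encoding a mitochondrial malic enzyme 66.3 kb away, was also lowest in Pan02 tumors, with 35.6 ± 3.11 CPM against means of 66.0 to 108 CPM elsewhere (-1.37 ± 0.12, adjusted p = 7.2e-07, edgeR). In Pan02 CAFs Me2 stood at 8.14 ± 1.72 RPKM (SD, n = 2) and fell too (-1.06 ± 0.13, adjusted p = 0.00050, limma). Elac1, which lies between Smad4 and Me2 at 31.3 kb, had its highest mean in Pan02 tumors, 14.3 ± 1.68 CPM, and was at 0.28 in Pan02 CAFs (adjusted p = 0.079).

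The receptors and partners of Smad4 were not reduced in Pan02. Of 12 core genes of the pathway, 4 were higher and 0 lower in Pan02 tumors, namely Smad3, Smad6, Tgfbr1 and Tgfbr2 (background 18.8% and 7.93%), with a median of 0.52 against 0.05 over all genes. Tgfbr2, the TGF-beta receptor subunit that binds ligand, rose to 544 ± 103 CPM (1.93 ± 0.16, adjusted p = 3.8e-07, edgeR). Smad3, which pairs with SMAD4, rose in Pan02 tumors (1.04 ± 0.17, adjusted p = 0.00016) and in Pan02 CAFs (1.93 ± 0.10, adjusted p = 7.1e-06, limma). Of 12 SMAD targets, 5 were higher and 0 lower in Pan02 tumors, with a median of 0.87 against 0.05 over all genes, led by Pmepa1, a feedback inhibitor of the pathway, at 525 ± 91.1 CPM against at most 66.3 CPM on average elsewhere (3.94 ± 0.24, adjusted p = 2.4e-08). Fibroblast markers moved with these values, since their sum was 8247 to 9167 RPKM in Pan02 tumors and at most 2691 RPKM in the other tumors, and their part in the result was not tested. B16 tumors, with the lowest fibroblast sums of 88.1 to 330 RPKM, had 9 of 12 SMAD targets lower and 1 higher (background 19.6% and 13.1%), with a median of -2.21 against -0.03 over all genes. In MC38 CAFs 7 of 12 targets and 5 of 11 tested core genes were lower and 0 higher (background 9.87% and 10.9%).

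Myc split the models as Cdkn1a did. LL2 tumors had 783, 1063 and 734 CPM and EO771 tumors 833, 694 and 761 CPM, while MC38 had 191, 167 and 211, Pan02 210, 139 and 136, and B16 93.3, 85.3 and 108 CPM. The EO771 and LL2 tumors lay far above all others and showed no difference beyond the spread from each other (adjusted p = 0.46, edgeR), as was the case for MC38 and Pan02 (0.30). Myc rose in LL2 (1.98 ± 0.13, adjusted p = 8.3e-08, edgeR) and EO771 (1.77 ± 0.13, adjusted p = 1.6e-07) and fell in B16 (-1.98 ± 0.17, adjusted p = 2.7e-07) and Pan02 (-1.03 ± 0.16, adjusted p = 7.7e-05). The Pan02 call sat at the fold threshold and went under it when any 1 of LL2 replicate 2, MC38 replicate 3 or Pan02 replicates 2 and 3 was left out, with values from -0.91 to -0.997. The smallest count of the 4 Myc transcripts was at least 99.5% of the largest in every library.

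In CAF libraries Myc had 578 and 248 RPKM in LL2 CAFs, 253 and 244 in EO771, 99.1 and 70.8 in Pan02, and 36.5 and 38.5 in MC38. It rose in LL2 (2.02 ± 0.29, adjusted p = 0.0022, limma) and EO771 (1.21 ± 0.29, adjusted p = 0.011), and fell in MC38 (-2.38 ± 0.29, adjusted p = 0.00042). Pan02 CAFs stood at -0.86 (adjusted p = 0.041), under the fold threshold, and MC38 CAFs were lower than Pan02 CAFs (-1.14, adjusted p = 0.028). The 2 LL2 libraries differed from each other more than those of any other model, and the LL2 value was 1.42 without the first and 2.63 without the second, called in both cases. Leaving out either EO771 library took the EO771 call away (adjusted p = 0.074 and 0.082).

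**Figure D3:**
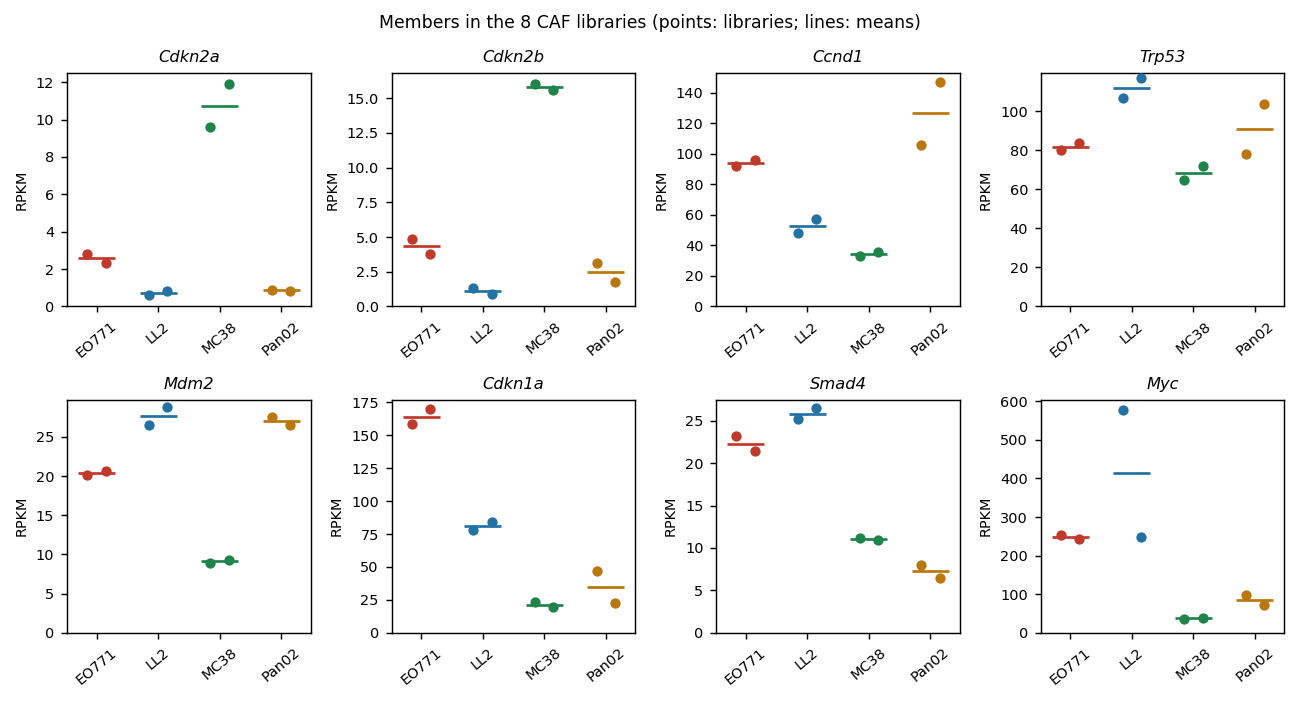
Level of each member in RPKM as deposited (vertical axes, each starting at 0) in the 2 CAF libraries of each of the 4 models; points are libraries and lines are means. MC38 is highest for Cdkn2a, read from the Arf transcript, and for Cdkn2b, and lowest for Ccnd1, Mdm2, Cdkn1a and Myc.

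Classical MYC targets of ribosome production and polyamine synthesis tracked Myc only in part. Of 14 such genes, 10 were lower and 0 higher in Pan02 tumors (background 7.93% and 18.8%), with a median of -1.16 against 0.05 over all genes, in the same tumors where all 10 fibroblast and 8 tested epithelial markers were higher. In EO771 and LL2 tumors, where Myc was highest, 1 of 14 was higher and 0 lower in each, with medians of 0.39 and 0.38 (background 9.71% and 13.7%, 8.51% and 8.29%). In B16, where Myc was lowest, 0 passed in either direction (median -0.17, background 13.1% and 19.6%). MC38 tumors had the highest median, 0.49, with 0 called (background 11.2% and 8.24%), although Myc was at -0.74 there (adjusted p = 0.0012, edgeR). Odc1, the first enzyme of polyamine synthesis, had 828 ± 96.5 CPM in EO771, 581 ± 165 in LL2, 246 ± 10.3 in MC38, 194 ± 24.8 in B16 and 131 ± 7.15 in Pan02 (SD, n = 3). It rose in EO771 (1.75 ± 0.12, adjusted p = 8.7e-08, edgeR) and LL2 (1.11 ± 0.13, adjusted p = 1.2e-05) and fell in Pan02 (-1.57 ± 0.15, adjusted p = 1.4e-06). The spermidine synthase gene Srm fell in Pan02 tumors (-1.56 ± 0.16, adjusted p = 2.0e-06) and Pan02 CAFs (-1.84 ± 0.16, adjusted p = 8.3e-05, limma). EO771 CAFs had 4 of 14 targets higher and 0 lower (8.05% and 7.06%), LL2 CAFs, with the highest mean of Myc, had 0 called either way (3.89% and 5.13%), MC38 CAFs had 0 higher and 2 lower (10.9% and 9.87%) and Pan02 CAFs 0 higher and 3 lower (9.73% and 8.41%). Of 11 partners and antagonists of MYC, none was called in B16 tumors (13.1% and 19.6%) or EO771 tumors (9.71% and 13.7%). In LL2 tumors 1 was higher (Mxi1, background 8.51%), in MC38 tumors 2 were lower (Mxd4 and Mxi1, 8.24%) and in Pan02 tumors 2 were higher (Mxd4 and Mycl, 18.8%).

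No listed proliferation gene was called higher in EO771 or LL2 tumors, where Myc was highest. Of 12 such genes, 3 were higher and 0 lower in B16 tumors (median 0.75, background 13.1% and 19.6%) and in MC38 tumors (median 0.59, background 11.2% and 8.24%). In EO771 0 were higher and 1 lower (median -0.20, background 9.71% and 13.7%), and in LL2 0 were called (median -0.08, background 8.51% and 8.29%). In Pan02 8 were lower and 0 higher (median -1.31, background 7.93% and 18.8%). Over all genes the medians lay between -0.04 and 0.05. The fall in Pan02 stood beside fibroblast marker sums of 8247 to 9167 RPKM, against at most 2691 RPKM in the other tumors. The replication licensing gene Mcm2 rose in B16 (704 CPM, 1.90 ± 0.12, adjusted p = 1.3e-08, edgeR) and the mitotic checkpoint kinase gene Bub1 fell in Pan02 (15.6 CPM, -2.06 ± 0.21, adjusted p = 2.8e-06). Among CAFs, 0 of 12 were higher and 1 lower in EO771 (8.05% and 7.06%) and in LL2 (3.89% and 5.13%). In MC38 CAFs (10.9% and 9.87%) and Pan02 CAFs (9.73% and 8.41%) 0 were called.

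**Figure D4:**
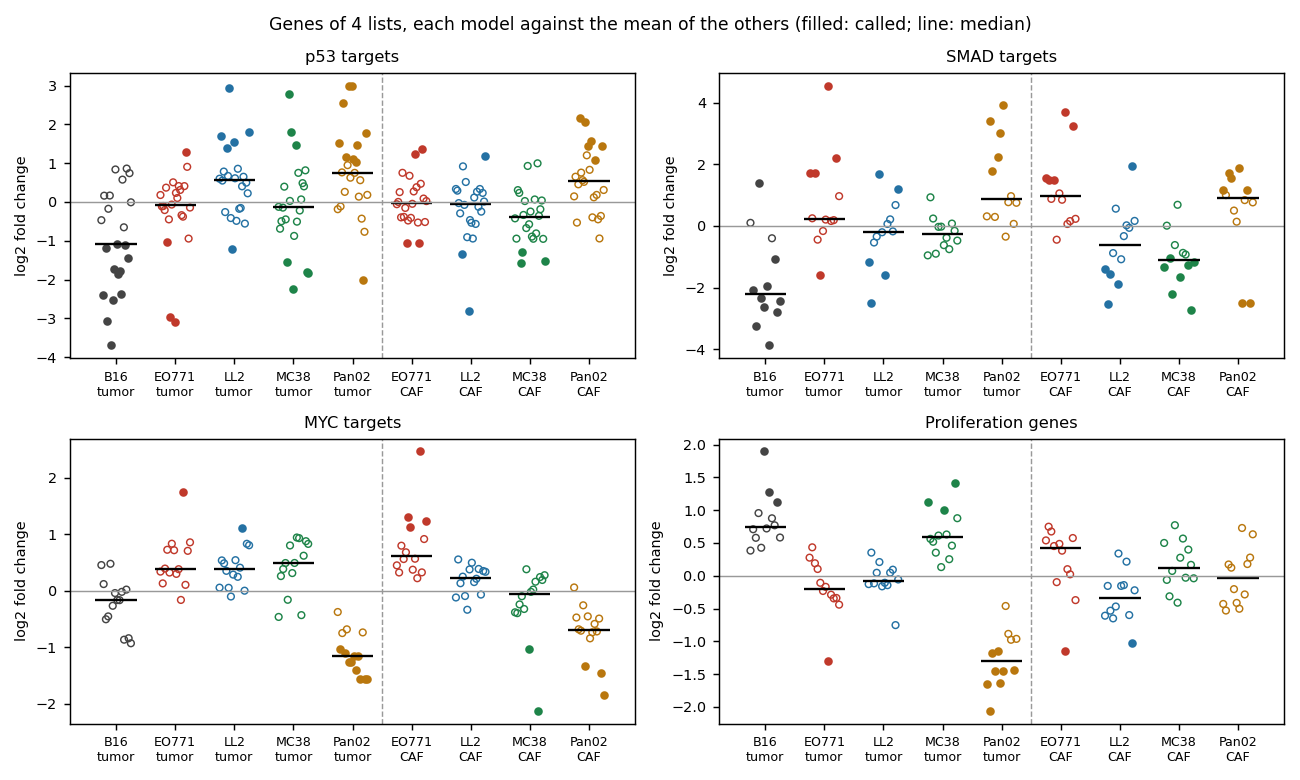
Log2 fold change of each gene of 4 lists (vertical axis) for every model compared with the average of the remaining ones, in tumors (left of the dashed line) and CAFs (right); filled points were called, lines are medians. The p53 targets lie low in B16 tumors (median -1.09) and high in Pan02 tumors (0.76), while MYC targets and proliferation genes lie low in Pan02 tumors (-1.16 and -1.31).

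Tumors and CAFs of the 4 shared models were then set side by side, with the tumor models compared among these 4 only. Of the 8 tumor calls higher than the other 3 models, 5 were also called higher in CAFs, 2 were not called and 1 was called lower. Of the 9 lower tumor calls, 5 were also lower in CAFs and 4 were not called. Over all genes, 48.7% of higher and 38.2% of lower tumor calls had the same call in CAFs, and the tumor and CAF libraries of a model are not independent, since the CAF libraries hold genes restricted to that model's tumors. Shared high calls were Cdkn2a and Cdkn2b in MC38, Cdkn1a in EO771, and Myc in EO771 and LL2. Shared low calls were Cdkn2a and Cdkn2b in LL2, Cdkn1a and Myc in MC38, and Smad4 in Pan02. The Cdkn2a excess of MC38 lay on exon 1β. Cdkn2a in Pan02 was the 1 opposite call, at 1.52 ± 0.30 in tumors (adjusted p = 0.0011, edgeR) and -1.15 ± 0.13 in CAFs, and the CAF call was lost with the Ink4a transcript (-0.48, adjusted p = 0.058, limma). The Cdkn2a calls of LL2 and Pan02 CAFs both rest on levels under 1 RPKM, set against means that include MC38. The difference between the 2 tables was not tested.

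**Figure D5:**
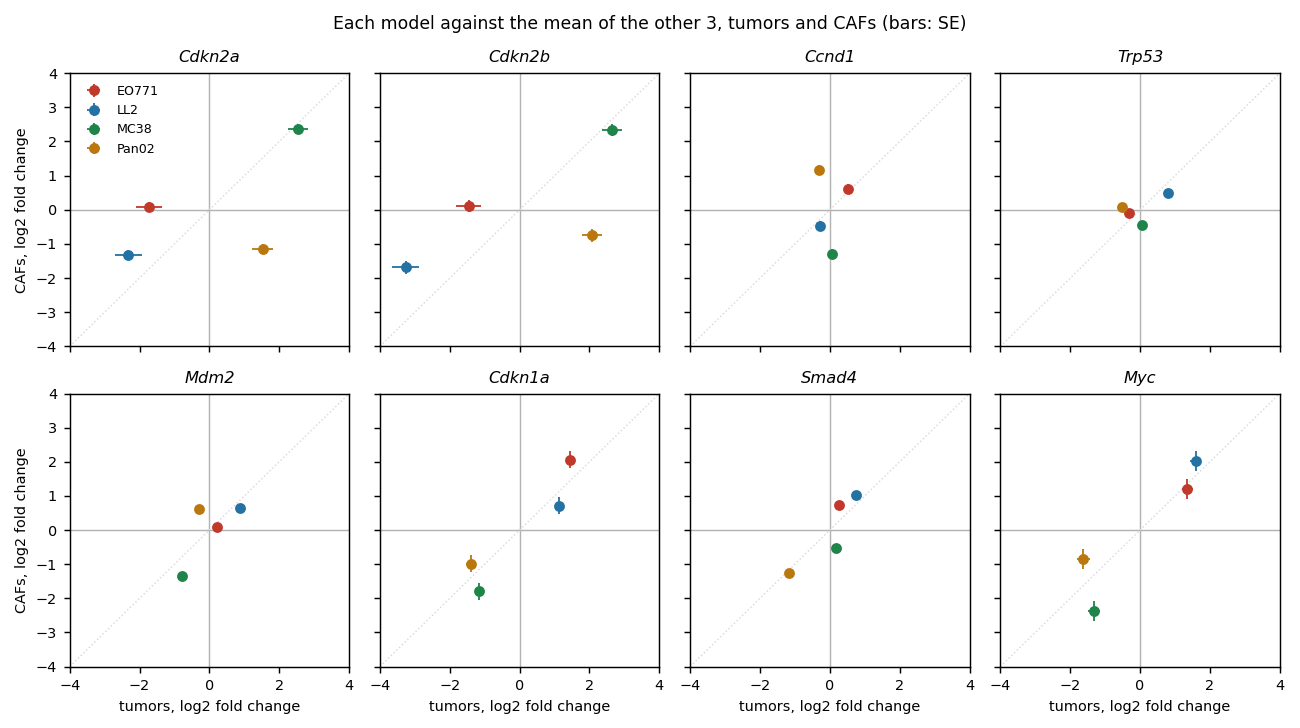
Log2 fold change of each member in every model compared with the average of the remaining 3, in tumors (horizontal axis) and CAFs (vertical axis), with SE bars and a dotted line of equal values. All points of Cdkn1a and Myc have the same sign on both axes. Signs are opposite in Pan02 and EO771 for Cdkn2a and Cdkn2b. They are also opposite in Pan02 and MC38 for Ccnd1 and Trp53, in Pan02 for Mdm2 and in MC38 for Smad4.

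For the remaining members, the genes whose pattern over the 15 tumors was nearest were Coq10b for Ccnd1 (root mean square difference 0.157), Dtwd1 for Trp53 (0.141), Ccny for Mdm2 (0.150), Amhr2 for Cdkn1a (0.224), Cad for Smad4 (0.161) and Dyrk3 for Myc (0.220). Dyrk3 had 45.8 and 62.0 CPM in EO771 and LL2 tumors and 4.86 to 11.1 CPM in the other 3 models.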

How the data were processed

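Poly(A) RNA was sequenced from unstranded libraries of 15 whole tumors and 8 CAF sorts. The authors aligned reads to mm10 with STAR 2.5.0c and counted them over the exons of RefSeq transcripts, on both strands, with HOMER. The tumor table deposited by the authors holds estimated counts in steps of 0.5 for 40458 transcripts, although it is titled normalized, and the CAF table holds RPKM with 3 decimals, as deposited. Columns of 5 samples were not used. The transcript of largest mean stood for each symbol, and 2 rows naming no gene were left out. Counts ending in 0.5 were rounded up.

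Tumor counts were fitted with edgeR 4.0.16 (R 4.3.3; TMM, filterByExpr, quasi-likelihood; 15722 genes tested), and CAF values with limma 3.58.1 (variance trend, log2(RPKM + 1), at least 1 RPKM in at least 2 libraries; 13598 genes). The pseudocount understates changes of low genes. Reads behind CAF values were recovered from the RPKM steps and transcript lengths (over 99.9% of checked values were whole multiples of 0.5 counts, within rounding to 3 decimals) and used for an alternative fit and for the Cdkn2a transcripts. CAF columns carry no replicate number, so libraries are named a and b only. Alternatives were DESeq2 1.42.0, total-count scaling, other filters, transcripts, pseudocounts and rounding, a replicate term, and leaving out each library. Fits were tested on simulated data.

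The members and gene lists were chosen with earlier results of these data known. Named genes were the 8 members, tested genes within 500 kb of Cdkn2a or Smad4, up to 4 called genes of each list with fully separated libraries and the largest changes, and the 3 genes most like each member; a few others were added after their values were seen.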

Additional observations from a re-analysis of the deposited data

Results flagged for a closer look

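In 6 of the comparisons between pairs of models, all tumors of one model lay on one side of all tumors of the other while the CAF libraries of the same models lay fully on the opposite side. The difference between tumors and CAFs was itself not tested, and the tables were normalized separately. EO771 against Pan02 gave 4 of these. Cdkn2a stood at -2.44 in tumors (adjusted p = 0.00015, edgeR) and 0.93 in CAFs (adjusted p = 0.0025, limma), and Cdkn2b at -2.65 (adjusted p = 4.5e-05) and 0.65 (adjusted p = 0.040). Ccnd1 stood at 0.62 in tumors (adjusted p = 0.00052) and -0.41 in CAFs (adjusted p = 0.093), and Mdm2 at 0.39 (adjusted p = 0.022) and -0.39 (adjusted p = 0.022). For LL2 against MC38, Ccnd1 was at -0.26 in tumors (adjusted p = 0.088) and 0.60 in CAFs (adjusted p = 0.027). For EO771 against MC38, Trp53 was at -0.29 in tumors (adjusted p = 0.093) and 0.26 in CAFs (adjusted p = 0.21). Of these 12 values, those of Cdkn2a and Cdkn2b in tumors passed both thresholds and the other 10 did not.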

How the results depend on the processing

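With the adjusted p alone and no fold threshold, 32 instead of 17 comparisons of members against the other tumor models passed, 57 instead of 34 between tumor pairs, and 26 instead of 15 against the other CAF models. Over all genes the same change took the tumor calls from 18717 to 42756 and the CAF calls from 8569 to 27038, and edgeR on the recovered CAF counts called 14353. Without the B16 tumors 21 tumor pairs of members were called, since fewer pairs remained. Read from its Ink4a transcript, an alternative chosen after seeing the data, Cdkn2a stood at -0.59 for MC38 tumors against the others, 0.57 for EO771 against MC38 tumors, -2.80 for MC38 against Pan02 tumors and 0.63 for EO771 against MC38 CAFs, each opposite in sign to the Arf value. The calls of Cdkn2a in LL2 tumors (-0.88, adjusted p = 0.23), LL2 CAFs (-0.42), Pan02 CAFs (-0.48) and MC38 CAFs (0.03) were lost as well, which left 15 tumor and 12 CAF calls against the other models. Leaving out each library in turn gave 16 to 19 calls against the other tumor models, 31 to 36 between tumor pairs, 13 to 17 against the other CAF models and 24 to 28 between CAF pairs. Without library a of Pan02 CAFs, Cdkn1a (-1.49) and Cdkn2b (-1.03) were called lower there, as was Cdkn1a without library b of MC38 (-1.02) and Myc without library b of LL2 (-1.06), and without B16 replicate 3 Cdkn1a was called lower in B16 tumors (-1.12). All 8 members differed among tumor models in each of these fits, and 7 to 8 among CAF models. Total-count scaling moved the median of all genes by 0.14 in MC38 and -0.11 in Pan02 tumors and left 17 member calls against the others, as did DESeq2, no filter on low counts, rounding down and the longest transcript. Replicate numbers did not pair the tumors: deviations of same-numbered tumors correlated between -0.165 and 0.263 (median 0.029), and 8 of 15 tumors were nearest to their own number. A fit with the replicate number as a block gave the same counts of 8, 17 and 34. No paired analysis was possible because the CAF columns carry no replicate number. Depth limits Cdkn2a and Cdkn2b in B16 and LL2 tumors, where few reads were counted.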
